A study of Mus musculus with 4 samples.

Results

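The genes of the mitochondrial ribosomal proteins were compared between livers of mice given JIB-04, a compound that blocks the Jumonji enzymes removing methyl groups from histones, and livers of untreated mice. The members were the protein-coding genes of the deposited table whose symbol is Mrpl or Mrps followed by a number and at most 1 letter, which gave 78 of 56748 genes. Of these, 49 carry a large-subunit name (Mrpl) and 29 a small-subunit name (Mrps). The 2 treated mice received JIB-04 by oral gavage at 55 mg/kg, as 5 doses given 2 per week, and the other 2 mice were untreated, so no animal received the vehicle alone. All 4 animals were NSG mice, an immunodeficient strain without mature T, B and natural killer cells, with the genotype label WT, and each library came from the liver of a separate mouse. Age and sex are not given in the labels.

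The mitochondrial ribosome translates the few proteins encoded by mitochondrial DNA, all of them subunits of the respiratory chain and the ATP synthase. Its ribosomal RNAs are transcribed inside the organelle, whereas every one of its proteins is encoded in the nucleus, translated in the cytosol and imported. The small subunit binds the mRNA and decodes it, and the large subunit joins the amino acids and is held to the inner membrane, where the products are inserted. Liver is rich in mitochondria.

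From 36469514 to 43283827 reads per library could be recovered from the FPKM values (fragments per gene length and library size). The mean number of reads behind a tested member ran from 292 to 5114 (median 947). The summed hepatocyte markers (8 genes, among them Alb and Apoa1) were 44656 and 36693 FPKM in JIB-04 1 and 2, against 62805 and 60800 in untreated 1 and 2, and all 8 were detected. Summed neutrophil markers (4 of 4 detected) were 44.3 and 71.6 FPKM in JIB-04 livers and 26.4 and 6.84 in untreated livers, and summed red cell markers (5 of 5 detected) were 654 and 1782 against 2952 and 1845 FPKM. Summed Kupffer cell markers (7 of 7 detected) were 287 and 355 FPKM in JIB-04 livers and 385 and 333 in untreated livers. Stellate cell markers (6 of 6 detected) summed to 53.3 and 51.4 FPKM in JIB-04 livers, below the 72.0 and 55.9 FPKM of untreated livers, and proliferation markers (4 of 4) to 4.98 and 3.01 FPKM, above the 1.80 and 1.69 FPKM of untreated livers. Endothelial markers (6 of 6) summed to 66.4 and 70.0 FPKM in JIB-04 livers and 81.2 and 64.3 in untreated livers, and cholangiocyte markers (5 of 5) to 36.1 and 43.8 against 40.1 and 34.4 FPKM, both with overlap. The part of these shifts in the values below was not tested, and in whole liver fewer cells of a type and less RNA per cell cannot be told apart.

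The promoters of 4 members named in the results that follow are shown as examples. Mrpl12 and Mrps21 had the highest levels of the 2 subunits, Mrpl17 had the lowest p of the large subunit, and Mrps18b had the largest positive difference of the small subunit. Each sequence is the 250 bases before the annotated start in RefSeq on GRCm38.p6, a build other than the GRCm39 of the deposited table, read 5′ to 3′ on the strand of the gene. Capitals mark matches on either strand to CGCANGCG, a form of the NRF1 motif, or to CCGGAAG, the core of the ETS motif that GABP also binds. The windows are chr11:120484387-120484636 (plus strand) for Mrpl12, chr3:95871515-95871764 (minus strand) for Mrps21, chr7:105811088-105811337 (minus strand) for Mrpl17 and chr17:35916441-35916690 (minus strand) for Mrps18b.
Mrpl12: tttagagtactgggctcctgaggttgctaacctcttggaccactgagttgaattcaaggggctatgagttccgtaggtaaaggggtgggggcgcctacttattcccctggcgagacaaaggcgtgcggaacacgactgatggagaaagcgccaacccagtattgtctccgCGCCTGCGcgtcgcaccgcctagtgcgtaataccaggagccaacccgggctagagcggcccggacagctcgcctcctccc
Mrps21: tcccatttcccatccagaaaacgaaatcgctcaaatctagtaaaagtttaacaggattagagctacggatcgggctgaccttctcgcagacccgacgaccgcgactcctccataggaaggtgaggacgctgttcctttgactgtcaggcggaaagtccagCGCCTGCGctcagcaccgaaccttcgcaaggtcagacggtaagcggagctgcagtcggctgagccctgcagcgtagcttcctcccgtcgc
Mrpl17: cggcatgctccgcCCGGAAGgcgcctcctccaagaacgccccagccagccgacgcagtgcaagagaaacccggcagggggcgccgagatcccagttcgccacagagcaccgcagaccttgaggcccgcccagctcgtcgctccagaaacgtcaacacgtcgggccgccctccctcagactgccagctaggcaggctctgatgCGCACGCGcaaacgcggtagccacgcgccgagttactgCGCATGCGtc
Mrps18b: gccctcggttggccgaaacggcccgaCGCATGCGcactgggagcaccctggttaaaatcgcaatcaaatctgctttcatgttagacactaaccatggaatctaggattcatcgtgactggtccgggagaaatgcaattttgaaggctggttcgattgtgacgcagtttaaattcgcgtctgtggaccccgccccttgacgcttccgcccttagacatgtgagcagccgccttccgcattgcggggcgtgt
In Mrpl12 the match to CGCANGCG began 80 bases before the start, and in Mrps21 it began 90 bases before it. Mrpl17 held 3 matches, to CCGGAAG at 237 bases and to CGCANGCG at 48 and 10 bases before the start. The match of Mrps18b lay farther out, at 224 bases. All 4 held CGCANGCG, which stood in only 26.7% of the member windows described below, so they are not typical in this. Mrps5, which had the lowest p of the small subunit, held no match to either motif in its 250 bases and is not shown. A match is a string of letters and not a measured binding site.

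RefSeq windows of 300 bases, 250 before the start and 50 after it, were at hand for 69 of the 78 members (75 windows, since some genes have several starts) and were set beside all 32851 windows of the table. On either strand CCGGAAG stood in 26 member windows (34.7%), against 8.86% of all windows. CGCANGCG stood in 20 (26.7%) against 8.21%, and its stricter form CGCATGCG, which is contained in it, in 7 (9.33%) against 1.87%. AAGATGGC, the letters of the YY1 motif, stood in 12 (16.0%) against 2.75%. CACGTG, the E-box bound by Myc and related factors, stood in 7 (9.33%) against 7.15%, and these 7 windows came from only 5 genes. At least 1 of CGCANGCG, CCGGAAG and AAGATGGC was present in 44 member windows (58.7%) and in 17.6% of all windows. The member windows were also richer in the letters these motifs use, with a median GC content of 58.7% against 52.7% and a median of 21 CpG dinucleotides against 7, so the shares are a description of windows that differ in base composition.

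None of the 77 tested members was called changed by JIB-04. The test was limma on log2(FPKM + 1) over the 10819 genes with a mean of at least 1 FPKM, and a gene was called at a Benjamini-Hochberg adjusted p under 0.05. The background was 2.14% of tested genes called (232 genes), 1.53% higher and 0.619% lower in JIB-04 livers. At an unadjusted p under 0.05, limma also gave 0 of 77 members, against 15.5% of all tested genes (9.06% higher and 6.47% lower). Voom on the recovered reads called 0 members (background 5.00%), with 1 member, Mrps5, at an unadjusted p under 0.05 (background 16.6%). The lowest adjusted p in limma was 0.377, for Mrps5, and the lowest in the large subunit was 0.434, for Mrpl17. A missed threshold does not show that the groups were alike, and with 2 mice per group an exact permutation test of a single gene cannot give a two-sided p below 0.333. The intervals bound the size instead: the unadjusted 95% interval of limma lay within 2-fold either way for 77 of 77 members and within 1.5-fold for 46 large-subunit and 25 small-subunit members. The bounds farthest from 0 were -0.61 for Mrpl58 and 0.87 for Mrpl54. These folds are on the log2(FPKM + 1) scale, which understates changes of low genes. By voom the intervals of 48 large-subunit and 29 small-subunit members lay within 2-fold, and those of 45 and 21 within 1.5-fold. In the fit without JIB-04 1 the intervals of 47 large-subunit and 27 small-subunit members stayed within 2-fold.

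**Figure D1:**
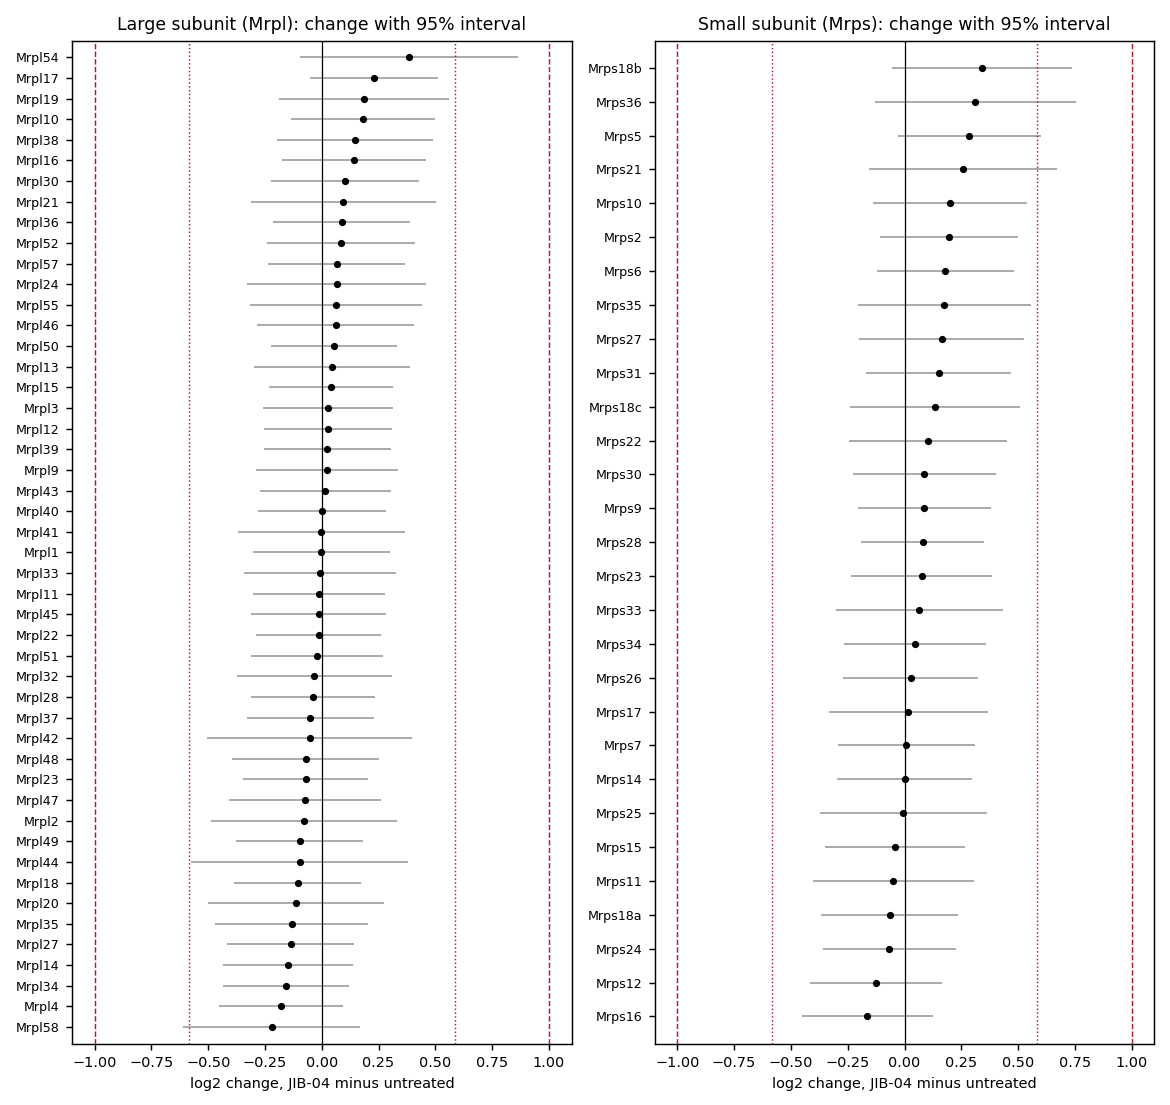
The log2 change of each tested member, JIB-04 minus untreated, is plotted on the horizontal axis with its unadjusted 95% interval from limma, for the large subunit on the left and the small subunit on the right. Dotted and dashed red lines mark 1.5-fold and 2-fold, and every interval crosses 0, since no member had an unadjusted p under 0.05.

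On the deposited FPKM scale the large subunit was centred on 0. Its summed level was 721 and 812 FPKM in JIB-04 1 and 2, against 775 and 757 FPKM in untreated 1 and 2. The means were 766 ± 64.5 and 766 ± 12.4 FPKM (SD, n = 2 each), and the treated mice lay on either side of both untreated ones. The median log2 change over 48 tested members was -0.002, with 23 positive and 25 negative values, beside 0.007 over all tested genes. Changes ran from -0.22 in Mrpl58 to 0.38 in Mrpl54. The 2 groups did not overlap for 11 members, 3 of them higher and 8 lower in JIB-04 livers, whereas the groups did not overlap for 46.4% of all tested genes, 24.6% higher and 21.8% lower.

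The proteins around the stalk and the catalytic centre of the large subunit showed small differences. Mrpl12 is the stalk protein that binds translation factors and has also been found with the mitochondrial RNA polymerase. It had 85.6 and 89.6 FPKM in JIB-04 livers, against 87.5 and 84.3 FPKM in untreated livers. The 4 values interleaved, and the log2 change was 0.03 (SE 0.118, limma adjusted p = 0.954). Mrpl10, which anchors the stalk, had 25.9 and 28.7 FPKM in JIB-04 livers and 22.1 and 25.9 FPKM in untreated livers. Untreated 1 was the low library there, and the log2 change was 0.18 (SE 0.134, limma adjusted p = 0.602). Mrpl3, a homologue of the bacterial protein L3 beside the peptidyl transferase centre, had 3.39 and 3.34 FPKM in JIB-04 livers and 3.32 and 3.24 FPKM in untreated livers. Its groups did not overlap, yet the log2 change was 0.03 (limma adjusted p = 0.953).

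By structure, 30 large-subunit proteins have a bacterial homologue, and their log2 changes were balanced, with 14 positive and 16 negative values. The 4 described next had lower values in JIB-04 livers and are among the 5 largest negative changes of the large subunit. Mrpl14 had 39.3 and 39.4 FPKM in JIB-04 livers, against 41.6 and 45.9 FPKM in untreated livers. Mrpl27, whose bacterial homologue reaches the catalytic centre, had 36.0 and 38.8 FPKM against 41.2 and 41.3 FPKM in untreated livers. For both, each treated mouse lay below each untreated mouse, with log2 changes of -0.15 and -0.14. Mrpl34 had 30.5 and 32.2 FPKM in JIB-04 livers and 34.4 and 35.7 FPKM in untreated livers, without overlap (log2 change -0.16). Mrpl4, whose bacterial homologue lines the exit tunnel, had 9.59 and 9.81 FPKM in JIB-04 livers and 11.5 and 10.8 FPKM in untreated livers, again without overlap (log2 change -0.18). Among these 4 genes the limma adjusted p ran from 0.541 to 0.665. Of the 50-base stretches in the annotated transcripts of Mrpl27, 22.3% occur also in another gene, so its reads could have been split.

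Mrpl58 and Mrpl54 had the extreme differences of the large subunit, and in both 1 treated mouse stood apart. Mrpl58, a peptidyl-tRNA hydrolase built into the ribosome that releases stalled chains, had 5.71 and 7.93 FPKM in JIB-04 1 and 2, against 7.62 and 8.43 FPKM in untreated livers. JIB-04 1 was the low value and JIB-04 2 lay between the untreated mice (log2 change -0.22, SE 0.163, limma adjusted p = 0.603). Mrpl54, a protein without a bacterial counterpart, had 18.7 and 27.4 FPKM in JIB-04 1 and 2, against 18.6 and 15.7 FPKM in untreated livers. JIB-04 2 was high and JIB-04 1 was level with untreated 1 (log2 change 0.38, SE 0.198, limma adjusted p = 0.444). Mrpl17, a homologue of bacterial L17, differed more evenly, with 7.67 and 8.43 FPKM in JIB-04 livers and 6.81 and 6.62 FPKM in untreated livers. Both treated mice were above both untreated mice (log2 change 0.23, SE 0.118, limma adjusted p = 0.434).

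The other named large-subunit genes overlapped between the groups. Mrpl38 had 19.5 and 23.3 FPKM in JIB-04 livers and 20.9 and 17.7 FPKM in untreated livers (log2 change 0.14). Mrpl44, which has the fold of an RNase III, had 9.15 and 13.5 FPKM in JIB-04 livers and 13.2 and 10.9 FPKM in untreated livers (log2 change -0.10). Mrpl57, present in mitochondrial ribosomes only, had 7.77 and 7.32 FPKM in JIB-04 livers and 6.63 and 7.74 FPKM in untreated livers (log2 change 0.07). In Mrpl44 the mice of each group differed more than the group means did. Mrpl48, Mrpl19 and Mrpl33 were the lowest of the tested large-subunit genes. Mrpl48 had 2.55 and 2.12 FPKM in JIB-04 livers and 2.38 and 2.61 FPKM in untreated livers. Mrpl19 had 2.05 and 2.38 FPKM in JIB-04 livers and 1.53 and 2.15 FPKM in untreated livers. Mrpl33 had 1.17 and 1.22 FPKM in JIB-04 livers and 1.33 and 1.09 FPKM in untreated livers. The limma adjusted p of these 3 lowest genes was 0.874, 0.655 and 0.989, in the same order.

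Mrpl53 was the single member below the level tested, since it was listed at 0 in all 4 libraries. In GRCm39 it lies at chr6:83086021-83086920 on the plus strand, wholly inside Gm42688 (chr6:83078598-83086920, same strand). Gm42688 was listed at 0.206 and 0.195 FPKM in JIB-04 livers and 0.128 and 0.117 FPKM in untreated livers, from 32, 26, 17 and 16 recovered reads. Of the 50-base stretches in the annotated transcripts of Mrpl53, 82.0% occur also in Gm42688. How reads in both genes were assigned is not given in the labels, so the 0 does not show that the transcript was absent.

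The small subunit had more positive than negative values, all of them small. Its summed level was 289 and 335 FPKM in JIB-04 1 and 2, against 289 and 300 FPKM in untreated 1 and 2. JIB-04 2 was highest, while JIB-04 1 was level with untreated 1, and the means were 312 ± 32.8 and 294 ± 7.80 FPKM (SD, n = 2 each). The median log2 change of the 29 members was 0.08, with 22 positive and 7 negative values and a range from -0.16 in Mrps16 to 0.34 in Mrps18b. The groups did not overlap for 9 members (31.0%), 7 higher and 2 lower in JIB-04 livers, beside 46.4% of all tested genes, 24.6% higher and 21.8% lower. The positive median rested on 1 mouse: leaving out JIB-04 2 gave -0.003 and leaving out JIB-04 1 gave 0.14, against 0.05 and 0.11 without untreated 1 and 2. For the large subunit the median was -0.06 with JIB-04 2 left out and 0.06 with JIB-04 1 left out, and 0.02 and -0.02 without untreated 1 and 2.

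Of the proteins at the decoding site and the mRNA channel, Mrps5 had the lowest p of all members. It is a homologue of bacterial S5, which lies where mRNA enters the ribosome. Mrps5 had 6.91 and 8.38 FPKM in JIB-04 livers, against 5.96 and 6.18 FPKM in untreated livers. Both treated mice were above both untreated mice (log2 change 0.29, SE 0.132, limma adjusted p = 0.377). Mrps12, a homologue of the decoding-centre protein S12, had 18.5 and 21.0 FPKM in JIB-04 livers and 22.1 and 21.2 FPKM in untreated livers. The treated mice lay just below the untreated ones (log2 change -0.13, SE 0.123, limma adjusted p = 0.705). Mrps2, a homologue of bacterial S2, had 13.8 and 16.3 FPKM in JIB-04 livers and 13.2 and 12.7 FPKM in untreated livers. It was higher in both treated mice, with a log2 change of 0.19 (SE 0.128, limma adjusted p = 0.550).

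The most abundant small-subunit genes were Mrps21, Mrps24 and Mrps7, all with bacterial homologues. Mrps21 had 35.1 and 49.0 FPKM in JIB-04 1 and 2, against 34.4 and 34.6 FPKM in untreated livers. JIB-04 2 was high and the other 3 libraries lay close together (log2 change 0.26, SE 0.172, limma adjusted p = 0.563). Mrps24 had 27.5 and 30.8 FPKM in JIB-04 livers and 31.1 and 30.0 FPKM in untreated livers. Mrps7, which binds the small ribosomal RNA, had 25.2 and 27.2 FPKM in JIB-04 livers and 24.5 and 27.8 FPKM in untreated livers. Both overlapped between the groups, with log2 changes of -0.07 and 0.01. Mrps16 had 6.08 and 6.88 FPKM in JIB-04 livers and 7.33 and 7.40 FPKM in untreated livers, without overlap (log2 change -0.16, limma adjusted p = 0.599).

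Mammals have 3 homologues of bacterial S18, of which Mrps18b and Mrps18c sit in the small subunit and Mrps18a in the large one. Mrps18b had 5.81 and 7.08 FPKM in JIB-04 livers, against 5.65 and 4.14 FPKM in untreated livers. Both treated mice were above both untreated mice, of which untreated 2 was low (log2 change 0.34, SE 0.167, limma adjusted p = 0.401). Of the 50-base stretches of Mrps18b, 14.6% occur also in another gene, Gm13552. Mrps18c had 7.13 and 9.74 FPKM in JIB-04 livers and 7.53 FPKM in each untreated liver (log2 change 0.13). Other genes share 19.2% of its 50-base stretches. Mrps18a had 7.10 and 8.33 FPKM in JIB-04 livers and 7.91 and 8.29 FPKM in untreated livers (log2 change -0.07). In these 2 genes the treated mice lay on either side of the untreated ones. Mrps30 also sits in the large subunit despite its name, and had 3.01 and 3.42 FPKM in JIB-04 livers and 3.16 and 2.77 FPKM in untreated livers (log2 change 0.09). Mrps36 is now known as a subunit of the 2-oxoglutarate dehydrogenase complex and not as a ribosomal protein. It had 6.35 and 8.61 FPKM in JIB-04 livers and 4.99 and 6.67 FPKM in untreated livers, with overlap (log2 change 0.31, SE 0.184, limma adjusted p = 0.507), and 17.3% of its 50-base stretches occur also in other genes, among them its pseudogene Mrps36-ps1. With Mrps18a and Mrps30 moved to the large subunit and Mrps36 left out, the medians were -0.002 over 50 large-subunit genes and 0.08 over 26 small-subunit genes.

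Among the remaining named small-subunit genes, Mrps22 had 5.23 and 4.79 FPKM in JIB-04 livers and 4.01 and 5.23 FPKM in untreated livers. Mrps34 had 8.25 and 7.15 FPKM in JIB-04 livers and 7.89 and 6.96 FPKM in untreated livers. Both are found in mitochondrial ribosomes but not in bacterial ones, and both overlapped between the groups, with log2 changes of 0.10 and 0.05. Mrps34 shares 34.2% of its 50-base stretches with another gene, Nme3, which it overlaps on the same strand. Mrps11, whose bacterial homologue S11 lies on the platform, had 4.13 and 5.54 FPKM in JIB-04 livers and 4.91 and 5.08 FPKM in untreated livers. Mrps35 had 2.61 and 3.62 FPKM in JIB-04 livers and 2.79 and 2.44 FPKM in untreated livers. In both the treated mice lay on either side of the untreated mean, with log2 changes of -0.05 and 0.18. Mrps25 had 1.45 and 2.00 FPKM in JIB-04 livers and 1.59 and 1.86 FPKM in untreated livers (log2 change -0.005). Mrps10, the lowest of the subunit, had 1.31 and 1.63 FPKM in JIB-04 livers and 1.09 and 1.20 FPKM in untreated livers. Both treated mice were above both untreated mice, with a log2 change of 0.20 (limma adjusted p = 0.586).

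**Figure D2:**
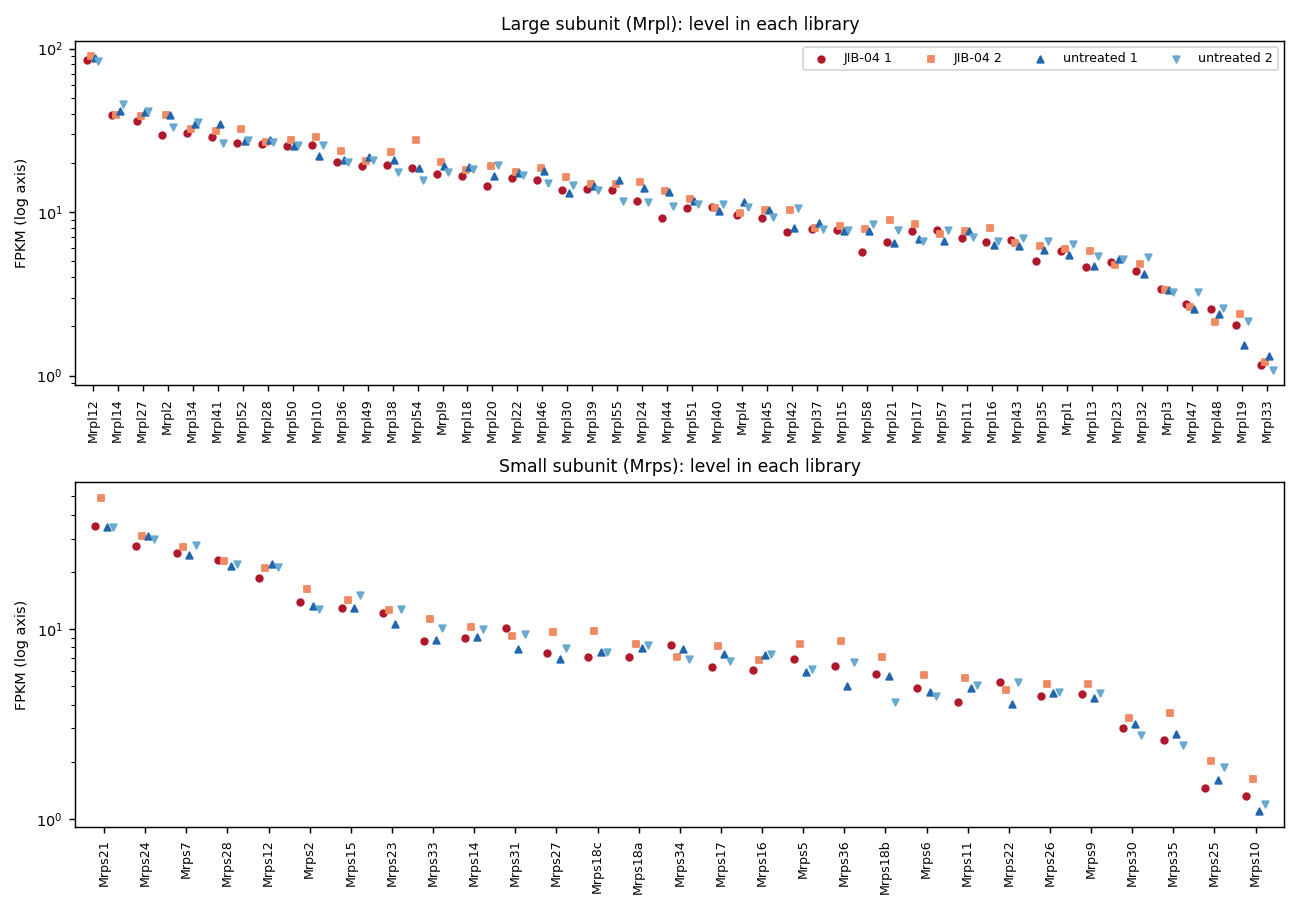
FPKM of each tested member in each library on a log axis, with the large subunit above, the small subunit below and genes ordered by their mean. Levels span 72.4-fold in the large and 29.3-fold in the small subunit, the symbols of neighbouring genes mostly overlap, and JIB-04 2 is the highest symbol for many small-subunit genes such as Mrps21.

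The 2 treated mice differed from each other in the same direction for most members. JIB-04 2 was above JIB-04 1 for 66 of 77 members (85.7%), 41 of 48 in the large and 25 of 29 in the small subunit, against 49.3% of all tested genes. The cytosolic ribosomal proteins (58 of 74, 78.4%) and the mitochondrially encoded proteins (9 of 13, 69.2%) showed the same direction. It was thus not seen in the members alone. It also prevailed in the 2 mitochondrial rRNAs and in 14 of 19 synthetases and amidotransferase subunits. So it did in 5 of 6 further genes, which were ribosome subunits with other names and the inner-membrane insertase Oxa1l. It did not in assembly factors (11 of 28), translation factors (6 of 14) or regulators of mitochondrial gene expression (1 of 8). Nor did it in genes of mitochondrial DNA transcription, replication and RNA stability (3 of 10). The median log2 difference of JIB-04 2 minus JIB-04 1 was 0.12 in the large and 0.18 in the small subunit, and that of untreated 2 minus untreated 1 was -0.01 and 0.04. JIB-04 2 was the highest of the 4 libraries for 40 members (51.9%), against 28.5% of all tested genes and 75.7% of the cytosolic ribosomal proteins. JIB-04 1 was the lowest for 33 members, against 2456 of all 10819 tested genes. Relative to the mean of the 4 libraries, the large-subunit median was -0.07 and 0.06 in JIB-04 1 and 2, against 0.009 and -0.004 in untreated 1 and 2. The small-subunit median was -0.07 and 0.11 in JIB-04 1 and 2, against -0.07 and 0.004 in untreated 1 and 2. Over all tested genes these medians lay between -0.006 and 0.008. The cell type markers given above also differed between these 2 mice, with neutrophil and red cell sums higher and hepatocyte sums lower in JIB-04 2, and their part in the split was not tested.

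**Figure D3:**
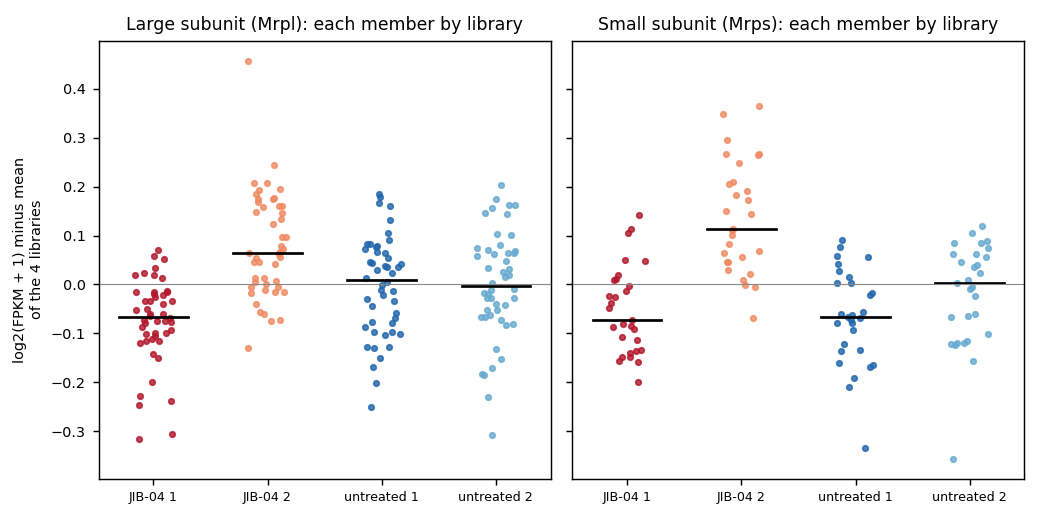
Each point is a tested member in a library, as log2(FPKM + 1) minus the mean of the 4 libraries, and black bars are medians. JIB-04 1 centres lower than JIB-04 2 in both subunits, with small-subunit medians of -0.07 and 0.11, and untreated 1 centres as low as JIB-04 1 in the small subunit.

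The spread between members was much larger than any difference between the groups. Mean levels ran from 1.20 FPKM in Mrpl33 to 86.7 FPKM in Mrpl12, a 72.4-fold range within the large subunit, with a median of 11.5 FPKM. In the small subunit they ran from 1.31 FPKM in Mrps10 to 38.3 FPKM in Mrps21, a 29.3-fold range, with a median of 7.56 FPKM. The 5 highest genes held 30.8% of the summed level of the large subunit and 45.3% of that of the small subunit. Neighbours in the order of levels mostly overlapped over the 4 libraries: 4 of 47 large-subunit pairs and 6 of 28 small-subunit pairs did not. The separated large-subunit pairs were Mrpl12 above Mrpl14, Mrpl32 above Mrpl3, Mrpl3 above Mrpl47 and Mrpl19 above Mrpl33. The first separated pair of the small subunit was Mrps21 above Mrps24. Apart from the separated pairs, the order of adjacent genes was not resolved. Genes farther apart were not counted here and could be separate. Mrpl14 (39.3 to 45.9 FPKM), for example, lay wholly above Mrpl34 (30.5 to 35.7 FPKM).

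The deposited gene length, which is the divisor in FPKM, went with the order of the levels. Spearman's rho between mean FPKM and length was -0.77 over 77 members, -0.82 in the large and -0.72 in the small subunit. Between recovered reads and length it was 0.11 over the same genes. Median levels were 20.3 FPKM for the 30 members of up to 2000 bases, 9.12 FPKM for the 25 members of over 2000 and up to 4000 bases and 4.69 FPKM for the 22 longer ones. The points share the 4 libraries and the lengths of 1 annotation, and the relation bears on levels between genes and not on the difference between groups.

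**Figure D4:**
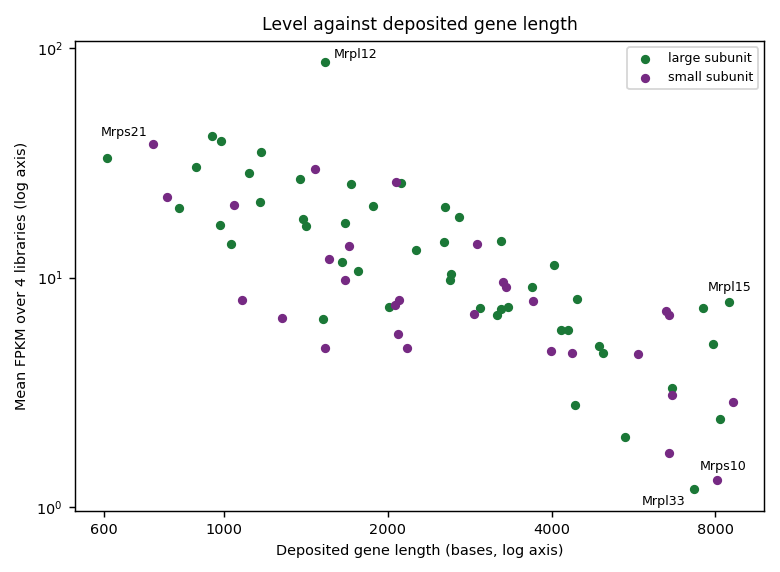
Mean FPKM over the 4 libraries against the deposited gene length in bases, both on log axes, with 1 point per tested member. Short genes such as Mrps21 lie high and long genes such as Mrpl33 and Mrps10 lie low, and Mrpl12 stands above genes of its length.

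A division by ancestry gave medians close to 0 in every class. With subunits taken by structure, the 30 large-subunit proteins shared with bacteria had a median log2 change of -0.005 and the 19 tested proteins particular to mitochondria 0.001. In the small subunit the 16 shared proteins had a median of 0.05 and the 9 mitochondrial ones 0.08. Members that fell in neither class were left out of these medians. The classes came from general knowledge of the ribosome and were added after the values had been seen.

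The other genes that make and run the mitochondrial ribosome had no called gene by limma in either direction. Besides Oxa1l, which is an inner-membrane insertase and not a subunit, the 6 further genes were ribosomal subunits with other names, such as Dap3. Their median log2 change was 0.02. Gadd45gip1, a large-subunit protein, had the lowest p among them, with 1.59 ± 0.394 FPKM in JIB-04 livers and 1.08 ± 0.0231 FPKM in untreated livers (SD, n = 2 each; log2 change 0.31, limma adjusted p = 0.424). Aurkaip1, a small-subunit protein, had 24.0 and 27.4 FPKM in JIB-04 livers and 26.5 and 30.1 FPKM in untreated livers (log2 change -0.14). Of 29 assembly factors 28 were tested, with a median of 0.01. In that list Rpusd4, a pseudouridine synthase of the large ribosomal RNA, had 3.43 ± 0.475 FPKM in JIB-04 livers and 2.42 ± 0.589 FPKM in untreated livers (log2 change 0.38, limma adjusted p = 0.340). Mrm2, a methyltransferase of the same RNA, had 4.06 ± 0.505 FPKM in JIB-04 livers and 5.17 ± 0.365 FPKM in untreated livers (log2 change -0.29, limma adjusted p = 0.367). The 14 tested translation factors of 15 had a median of 0.06. Mtrf1, of the release factor family, had 2.39 and 1.60 FPKM in JIB-04 livers and 3.21 and 2.67 FPKM in untreated livers (log2 change -0.40, limma adjusted p = 0.322). Mtrf1l, which releases finished chains, had 2.12 and 1.96 FPKM in JIB-04 livers and 1.66 and 1.61 FPKM in untreated livers (log2 change 0.21, limma adjusted p = 0.528). The related pair had differences of opposite sign, each without overlap and neither called. The groups did not overlap for 35.7% of the 14 tested translation factors, against 46.4% of all tested genes. The 19 tested of 20 mitochondrial aminoacyl-tRNA synthetases and amidotransferase subunits had a median of -0.09. Qrsl1, a subunit of the amidotransferase that makes glutaminyl-tRNA, had 1.01 ± 0.0551 FPKM in JIB-04 livers and 1.69 ± 0.195 FPKM in untreated livers (log2 change -0.42, limma adjusted p = 0.206). Aars2, the alanyl-tRNA synthetase, had 2.96 and 2.98 FPKM in JIB-04 livers and 3.63 and 4.51 FPKM in untreated livers (log2 change -0.35, limma adjusted p = 0.292). The 10 tested of 12 genes of mitochondrial DNA transcription, replication and RNA stability had a median of 0.12. Polg2, the accessory subunit of the mitochondrial DNA polymerase, had 1.16 and 1.43 FPKM in JIB-04 livers and 1.75 and 1.67 FPKM in untreated livers (log2 change -0.24, limma adjusted p = 0.488). Lonp1, a protease of the matrix, had 35.5 and 36.3 FPKM in JIB-04 livers and 30.7 and 31.7 FPKM in untreated livers (log2 change 0.20, limma adjusted p = 0.491).

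The RNAs encoded in mitochondrial DNA had positive log2 changes and no call. All 13 mitochondrially encoded proteins were above 0, with a median of 0.19 that was 0.11 without JIB-04 2, 0.09 without untreated 1 and 0.04 under quantile normalization. Without JIB-04 1 it was 0.27, and without untreated 2 it was 0.32. The lowest p was that of mt-Nd4l, a subunit of complex I, with 33.1 and 26.7 FPKM in JIB-04 livers and 20.6 and 22.0 FPKM in untreated livers (log2 change 0.46, limma adjusted p = 0.177). Next was mt-Co2, a subunit of cytochrome c oxidase, with 181 and 262 FPKM in JIB-04 livers and 168 and 165 FPKM in untreated livers (log2 change 0.39, limma adjusted p = 0.413). Each treated mouse was above each untreated mouse in both genes. The small ribosomal RNA, mt-Rnr1, had 588 and 680 FPKM in JIB-04 livers, against 473 and 458 FPKM in untreated livers. The large ribosomal RNA, mt-Rnr2, had 501 and 557 FPKM in JIB-04 livers and 417 and 390 FPKM in untreated livers. Both were higher in each treated mouse, with log2 changes of 0.44 and 0.39 (limma adjusted p = 0.202 and 0.239). Whether rRNA was removed before sequencing is not given in the labels, and its part in these levels was not tested.

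The cytosolic ribosomal proteins, which form the ribosome outside the organelle, had larger log2 changes than their mitochondrial counterparts. Of 80 genes 74 were tested, 71 were positive and the median log2 change was 0.29, beside -0.002 and 0.08 in the 2 mitochondrial subunits. The groups did not overlap, with JIB-04 higher, for 65 of the 74 (87.8%), while for the 77 mitochondrial members they did so for 10, and for 24.6% of all tested genes. The median was 0.23 with JIB-04 2 left out and 0.34 with JIB-04 1 left out. A single gene was called by limma: Rpl12 rose, with 64.7 and 69.5 FPKM in JIB-04 livers against 40.2 and 40.3 FPKM in untreated livers (log2 change 0.72, SE 0.118, adjusted p = 0.0362). Without any 1 of the 4 libraries its adjusted p lay between 0.118 and 0.195. Voom called 4 of the 74 genes, Rpl12, Rplp1, Rpl10a and Rpl23a. Over all tested genes limma called 2.14% and voom 5.00%. The difference between the lists was not tested.

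**Figure D5:**
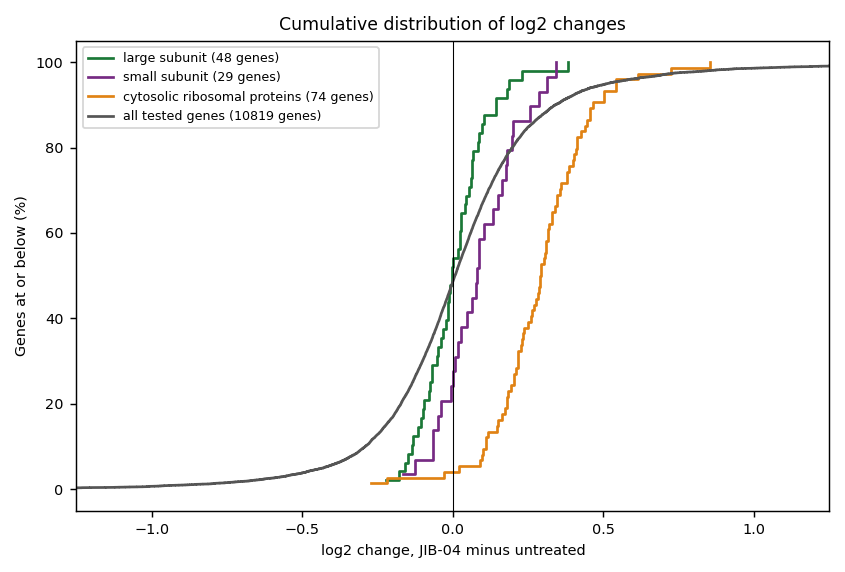
Cumulative percentage of genes at or below each log2 change, JIB-04 minus untreated, for the large subunit, the small subunit, the cytosolic ribosomal proteins and all tested genes. The curves of the mitochondrial subunits rise steeply near 0, with medians of -0.002 and 0.08, and that of the cytosolic ribosomal proteins lies to the right, with a median of 0.29.

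Of 10 regulators of mitochondrial gene expression 8 were tested, with no call by limma and a median log2 change of -0.08. Ppargc1a, the coactivator that promotes mitochondrial biogenesis, had 0.860 and 0.715 FPKM in JIB-04 livers, against 1.49 and 1.71 FPKM in untreated livers. Both treated mice were below both untreated mice (log2 change -0.54, SE 0.142, limma adjusted p = 0.126), and voom gave a log2 change of -1.02 with an adjusted p of 0.0262. Esrra, a nuclear receptor that acts with it, had 9.41 and 8.61 FPKM in JIB-04 livers and 6.28 and 7.66 FPKM in untreated livers (log2 change 0.33, limma adjusted p = 0.304). Myc was called by neither limma nor voom on all 4 libraries, and its limma call without untreated 1 rested on a single untreated mouse. Nrf1, whose motif letters are given above, was below the tested level, with 0.774 and 0.583 FPKM in JIB-04 livers and 0.790 and 0.716 FPKM in untreated livers.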

How the data were processed

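The authors deposited 1 table of FPKM values per gene with lengths, coordinates and biotypes. Genome build GRCm39 (mm39) is named per the submitters' processing notes. No source used here gives the aligner, counter, annotation release or strand setting, so reads of overlapping genes (41 members overlap another gene) may not have been told apart. RNA was extracted with Trizol, per the labels' protocols. FPKM times gene length gave whole reads for 100% of values (tolerance 0.01). Genes averaging 1 FPKM or more over the 4 libraries were tested on log2(FPKM + 1), which understates changes of low genes, with limma 3.58.1 in R 4.3.3 (trend and robust moderation, two-sided), adjusted over 10819 genes. The script was tested on simulated data. The members and lists were chosen with earlier results of these data known. Named were, in each subunit, the 5 largest changes in either direction, the 3 highest and 3 lowest levels, members with a role of their own and untested members, and in each companion list the called genes or the 2 lowest p. Protein sequences were not used here. The summed markers of 1 cell type list are not reported here. Of the 78 members, 33 share no 50-base stretch with another gene in the transcripts of the reference annotation, and 4 share over 20%.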

Additional observations from a re-analysis of the deposited data

How the results depend on the processing

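No member was called under any of 16 alternatives, and the lowest adjusted p of a member in any fit was 0.201 (limma, Mrpl54 without JIB-04 1). The count of all genes called, 232, was 464 at an adjusted p under 0.1, 541 by voom on recovered reads, 20 with no filter on low values and 357 with the replicate number as a block. It was 30 with JIB-04 1 left out and 23 with JIB-04 2 left out, and leaving out each replicate in turn gave 23 to 156, the lone sample being assumed to vary like the other group. The share of called genes higher in JIB-04 livers was 71.1%. It was 60.2% (127 higher, 84 lower) on TPM with the 50 most abundant genes and those of mitochondrial DNA removed. On that TPM scale 14 of 48 large-subunit and 17 of 29 small-subunit members were positive, and the median log2 change of all tested genes was -0.05. Under quantile normalization 18 large-subunit and 19 small-subunit members were positive, and the median of all tested genes was -0.01. Same-numbered libraries shared only a number (correlation of deviations -0.05 over 10819 genes), and the replicate block called 0 members.

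Directions of single members were often unstable. Of 77 members 28 kept their sign in all of the 15 alternatives that tested them, 17 positive and 11 negative. With a mean of at least 5 FPKM required, only 42 large-subunit and 20 small-subunit members were tested. On TPM without the abundant genes the log2 change was -0.029 for Mrpl12, -0.019 for Mrpl3, -0.0048 for Mrps34 and -0.049 for Mrps7. Quantile normalization gave -0.016 for Mrpl12, 0.0075 for Mrpl33 and -0.052 for Mrps7, and centring on the median gave -0.0050 for Mrps7. Leaving out each replicate in turn gave log2 changes from -0.0055 to 0.059 for Mrpl12, -0.086 to 0.069 for Mrpl33, -0.35 to 0.16 for Mrpl44, -0.16 to 0.024 for Mrpl48, -0.032 to 0.16 for Mrpl57, -0.22 to 0.13 for Mrps11, -0.17 to 0.037 for Mrps18a, -0.068 to 0.33 for Mrps18c, -0.053 to 0.26 for Mrps22, -0.15 to 0.013 for Mrps24, -0.15 to 0.14 for Mrps25, -0.046 to 0.14 for Mrps34, -0.0036 to 0.35 for Mrps35 and -0.081 to 0.096 for Mrps7. The cause was not tested.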
